A study of Mus musculus with 4 samples.

Results

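Mas-related G protein-coupled receptors (Mrgprs) were followed in 4 single-cell RNA-sequencing libraries of dorsal root ganglion (DRG) neurons. The 6 genes described here are *Mrgprd*, *Mrgpra3*, *Mrgprb4*, *Mrgprb5*, *Mrgprx1* and *Mrgpre*, chosen by symbol from the 31053 genes of the count matrices, which hold 20 symbols of the family. Cells were sorted for green fluorescence from lumbar (L4-5) DRGs of heterozygous Pirt EGFPf mice on the C57BL/6 background, aged 7 to 8 weeks. In these mice a membrane-bound green fluorescent protein replaces the coding frame of *Pirt* and is driven by the *Pirt* promoter of sensory neurons, so all 4 libraries, controls included, carry 1 disrupted copy of *Pirt*. Male-Sham and Female-Sham came from sham-operated mice and Male-CCI and Female-CCI from mice with the sciatic nerve constricted by ligatures on both sides (chronic constriction injury, CCI), all taken at day 7 after surgery. Each library pooled 20 DRGs of 5 mice, and male and female littermates got the same operation, so litter and surgery cannot be told apart.

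Mrgprs couple peripheral sensory endings to itch, pain and touch, and most members are found in small-diameter neurons of the DRG. They signal through Gq and Gi proteins and phospholipase C to ion channels such as Trpa1. *Mrgprd* encodes the receptor for beta-alanine and marks nonpeptidergic neurons that end in the epidermis. *Mrgpra3* encodes the chloroquine receptor of pruriceptive neurons, *Mrgprx1* (formerly *Mrgprc11*) the receptor for the itch peptide BAM8-22, and *Mrgprb4* marks neurons that respond to stroking of hairy skin. *Mrgprb5* is a close relative of *Mrgprb4*, and *Mrgpre* encodes an orphan receptor.

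All 6 genes are annotated as protein coding on mouse chromosome 7 (GRCm38, GENCODE vM21), as are 19 of the 20 family members on that chromosome. *Mrgpra3* (47588950 to 47601372), *Mrgprx1* (48020971 to 48027597), *Mrgprb5* (48167983 to 48169019) and *Mrgprb4* (48198070 to 48199288) lie on the minus strand within 610 kb, and the last pair are single-exon neighbours 29.1 kb apart. *Mrgpre* (143778363 to 143784500, minus strand) and *Mrgprd* (145314835 to 145324086, plus strand) lie 1530 kb from each other at the far end of the chromosome. RefSeq promoter sequences (GRCm38.p6) were matched for 5 of the 6 genes, all but *Mrgpra3*. The sequence before *Mrgprb5* and *Mrgprb4* is shown because it lies just outside the transcripts of both genes, whose upstream bases align, with capitals at each base that differs from the aligned base of the neighbour.

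Mrgprb5, chr7:48169096-48169235, minus strand: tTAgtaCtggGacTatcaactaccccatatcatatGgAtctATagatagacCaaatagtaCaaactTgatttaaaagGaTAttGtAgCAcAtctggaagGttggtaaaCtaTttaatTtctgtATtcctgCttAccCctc
Mrgprb4, chr7:48199289-48199428, minus strand: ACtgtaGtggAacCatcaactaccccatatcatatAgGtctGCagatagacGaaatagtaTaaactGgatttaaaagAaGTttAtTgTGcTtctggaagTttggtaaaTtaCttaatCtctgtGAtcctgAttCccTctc

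Of these 140 bases 111 were identical (79.3%) and 29 differed. Over the whole 250 bases before the RefSeq starts, part of which lies in the GENCODE transcripts, *Mrgprb5* and *Mrgprb4* shared 82.8% of bases, against at most 12.8% for any other pair of the 5 genes. In the classes of neurons described below, all 27 UMIs of *Mrgprb4* lay in a single class, in 11 neurons. Most UMIs of *Mrgprb5* lay in another, more numerous class. *Mrgprb5* was also found in the class of *Mrgprb4*, and which class had its higher level differed between surgeries. Where reads of near-identical copies map equally well to more than 1 gene, counting can drop or split them, so levels of *Mrgpra3*, *Mrgprb5*, *Mrgprb4* and *Mrgprx1* are uncertain to that extent.

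The 250 bases before *Mrgprd* and *Mrgpre*, whose RefSeq and GENCODE starts coincide, are shown because *Mrgprd* lay almost wholly in 1 class of neurons and *Mrgpre* in all of them.

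Mrgprd, chr7:145314585-145314834, plus strand: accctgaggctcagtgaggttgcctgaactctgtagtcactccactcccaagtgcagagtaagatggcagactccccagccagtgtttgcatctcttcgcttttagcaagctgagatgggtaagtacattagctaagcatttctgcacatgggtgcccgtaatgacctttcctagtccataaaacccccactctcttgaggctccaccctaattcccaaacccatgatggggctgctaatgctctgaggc
Mrgpre, chr7:143784501-143784750, minus strand: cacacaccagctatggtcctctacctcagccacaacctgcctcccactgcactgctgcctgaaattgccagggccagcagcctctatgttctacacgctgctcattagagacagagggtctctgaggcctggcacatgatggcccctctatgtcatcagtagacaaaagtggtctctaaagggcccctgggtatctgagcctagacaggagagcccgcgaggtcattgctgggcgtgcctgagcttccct

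Runx1, a transcription factor of nonpeptidergic neurons, is known to be needed for several Mrgprs and binds a short core motif. Its letters TGTGGT or TGCGGT, read on both strands from 250 bases before to 50 after the start, were in 0 of the 5 promoters, in 4 of 11 promoters of other Mrgpr genes and in 7362 of 32851 promoters (22.4%) over the genome. This states only which letters the windows hold.

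The libraries held 5019 to 8035 cells and 195684124 to 237069156 unique molecular identifiers (UMIs). In the order male and female sham, male and female CCI, which all series of 4 values follow, filters left 3281, 5398, 2817 and 3637 neurons, with medians of 45172, 32490, 56457 and 43527 UMIs per neuron. Between 98.3% and 99.5% of neurons had a UMI of *Pirt* and over 99.9% one of *Tubb3*, the neuronal tubulin. Any pair of libraries shared 215 to 513 barcodes as deposited and 0 to 6 after the filters. The cells were clustered without any Mrgpr gene, and clusters were named for the study's classes (NP, nonpeptidergic; PEP, peptidergic; NF, neurofilament-rich; cLTMR, C-fiber low-threshold mechanoreceptors; CCI-ind, a group that arises with CCI) from other markers, written with "-like". *Lpar3*, for example, which encodes a lysophosphatidic acid receptor, lay at 120, 110, 67.7 and 69.8 CPM (UMIs scaled to a common total per library) in NP2-like neurons and at 1.51 to 2.62 CPM in all other neurons. NP2-like neurons numbered 460, 591, 147 and 169, and NP3-like neurons 191, 238, 67 and 68.

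Over the 15133 neurons *Mrgprd* gave 28013 UMIs in 1776 neurons, *Mrgpra3* 7276 in 626, *Mrgprx1* 785 in 623, *Mrgprb5* 162 in 139, *Mrgprb4* 27 in 11, and *Mrgpre* 14695 in 8407. Thus *Mrgprd* and *Mrgpra3* were found at many UMIs in few neurons, *Mrgpre* at few UMIs in most neurons, and *Mrgprb4* in almost none.

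*Mrgprd* lay at 359, 284, 353 and 272 CPM in NP2-like neurons and was detected in 99.6%, 99.5%, 100% and 95.3% of them. NP2-like neurons held 94% to 97% of its UMIs in each library. Its level in NP3-like neurons was 46.3, 19.7, 26.9 and 8.59 CPM, and in NP1-like neurons 5.45, 12.1, 2.40 and 0.249 CPM. The 2 females were lower than the 2 males in NP2- and NP3-like neurons, which with 1 library per sex and surgery was not tested. As a measure of free RNA, classes that are not known to use *Mrgprd* (NF1, NF2, PEP2, PEP5 and cLTMR) held 0.338 to 1.78 CPM in sham libraries, in 1.52% to 7.43% of neurons, so the NP3-like level stood above background in each library.

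*Mrgpra3* was the counterpart of *Mrgprd* in NP3-like neurons, at 212, 239, 177 and 159 CPM and in 86.9%, 87.4%, 80.6% and 76.5% of them. These neurons held 96% to 98% of its UMIs. In NP2-like neurons *Mrgpra3* lay at 0.8001, 0.613, 0.423 and 0.0932 CPM and in NP1-like neurons at 2.37, 1.70, 0.343 and 0 CPM. *Mrgprb4* was found in 1, 6, 3 and 1 neurons, with 3, 8, 15 and 1 UMIs, and all 11 neurons were NP3-like.

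*Mrgprx1* was shared between classes. It lay at 3.65, 4.05, 4.90 and 5.50 CPM in NP2-like neurons (17.8%, 16.1%, 24.5% and 24.9% of neurons), at 7.77, 7.49, 6.76 and 7.58 CPM in NP3-like neurons (38.2%, 29.8%, 40.3% and 38.2%), and at 0.976, 1.498, 1.52 and 1.63 CPM in PEP1-like neurons. NP2-like neurons held 43% to 47% of its UMIs, NP3-like 23% to 38% and PEP1-like 10% to 19%. *Mrgprb5* lay at 1.73, 1.84, 0.507 and 0.932 CPM in NP2-like neurons, and at 1.28, 0.998, 0.564 and 1.01 CPM in NP3-like neurons. The level was higher in NP2-like neurons in both sham libraries and in NP3-like neurons in both CCI libraries, on few UMIs. NP2-like neurons, which are more numerous, held 76.1%, 81.8%, 54.5% and 71.4% of *Mrgprb5* UMIs and NP3-like neurons 22.5%, 18.2%, 27.3% and 28.6%, whereas all UMIs of its neighbour *Mrgprb4* lay in NP3-like neurons.

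*Mrgpre* was found in every class of neurons, in 61.0%, 52.0%, 59.6% and 52.7% of all neurons. Its level was 12.4, 12.4, 14.6 and 15.01 CPM in NP2-like, 30.5, 27.0, 28.7 and 30.6 CPM in NP3-like, and 25.6, 26.0, 27.7 and 28.7 CPM in PEP1-like neurons. A cluster left without a name was highest, at 34.7, 40.5, 42.7 and 38.5 CPM. In satellite glia-like cells, which are far shallower, it was detected in 0.690% to 4.59% of cells. No class of neurons lacked *Mrgpre*.

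**Figure D1:**
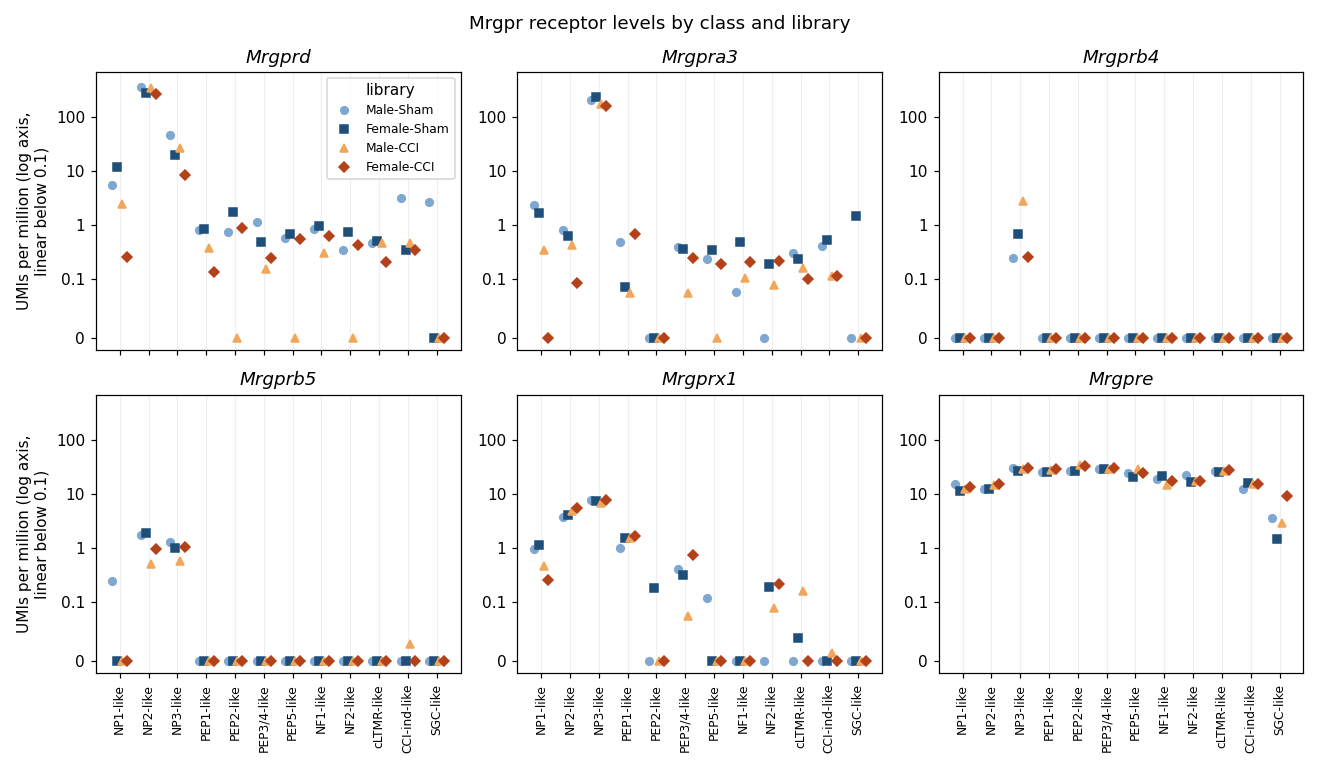
Level of each of the 6 receptors (CPM of summed UMIs, log axis that is linear below 0.1) by class, with a point per library, its color and shape marking sham or CCI and sex. SGC-like are satellite glia-like cells. *Mrgprd* peaks in NP2-like neurons (272 to 359 CPM), *Mrgpra3* in NP3-like neurons (159 to 239 CPM), and *Mrgpre* lies in all classes.

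NP2-like neurons comprised 2 clusters that differed in their receptors. The cluster led by *Mrgprd*, *Gm765* and *Prkcq* had *Mrgprd* at 431, 343, 413 and 346 CPM, the cluster led by *Fbp1* and *Otoa* at 316, 254, 337 and 245 CPM. *Mrgpre* followed the same order, at 16.5, 14.6, 24.0 and 19.2 against 10.1, 11.3, 12.2 and 13.5 CPM. *Mrgprx1* went the other way in 3 of 4 libraries, at 2.49, 2.71, 3.26 and 6.62 CPM against 4.34, 4.74, 5.34 and 5.09 CPM. The *Fbp1*-led cluster was also the deeper, with median depths of 90986, 59978, 93199 and 80275 UMIs against 54164, 40718.5, 66960 and 54795.5. The clusters were made from these cells, so these values carry no test.

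Single neurons were then scored for pairs of receptors, with 1 UMI as the limit of detection. Within NP2-like neurons *Mrgprb5* and *Mrgprx1* were rarely found together. In Male-Sham 2 of 47 *Mrgprb5*+ neurons also held *Mrgprx1*, against 19.4% of *Mrgprb5*- neurons. In Female-Sham these were 2 of 47 and 17.1%. Of the *Mrgprb5*+ neurons in Male-CCI and Female-CCI 0 of 5 and 0 of 8 held *Mrgprx1*, against 25.4% and 26.1% of the others. Pooled over sham this is 4.26% of 94 *Mrgprb5*+ neurons (95% CI 1.17 to 10.5) against 18.1% of 957, and over CCI 0% of 13 (95% CI 0 to 24.7) against 25.7% of 303. Intervals are exact binomial and cover counting error only. All 4 libraries had the lower share in *Mrgprb5*+ neurons, but cells of a library are not replicates and no test was made. With each neuron thinned to 10000 UMIs, 0 of 7 and 0 of 8 *Mrgprb5*+ sham neurons of the class were left with *Mrgprx1*, too few to compare.

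All 94 sham and 13 CCI *Mrgprb5*+ NP2-like neurons had *Mrgprd*, as did 177 of 177 sham and 77 of 78 CCI *Mrgprx1*+ neurons. *Mrgprd* was detected in 1046 of 1051 sham and 308 of 316 CCI NP2-like neurons, so this overlap follows from the class. In NP3-like neurons *Mrgprx1* was in 5 of 25 *Mrgprb5*+ sham neurons against 34.4% of *Mrgprb5*- neurons, and in 3 of 5 against 38.5% in CCI, so the lower share was not seen there in both surgeries. *Mrgpre* was in 60.6% of *Mrgprb5*+ (95% CI 50.02 to 70.6) and 46.0% of *Mrgprb5*- NP2-like sham neurons. It was in 52.0% of *Mrgprx1*+ (95% CI 44.4 to 59.5) and 46.3% of *Mrgprx1*- sham neurons. In CCI *Mrgpre* was in 84.6% of *Mrgprb5*+ and 58.1% of *Mrgprb5*- neurons, and in 57.7% of *Mrgprx1*+ and 59.7% of *Mrgprx1*- neurons, so that the direction held in both surgeries for *Mrgprb5* alone.

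NP3-like neurons held more combinations. *Mrgprx1* was in 37.3%, 30.8%, 38.9% and 36.5% of *Mrgpra3*+ neurons and in 44.0%, 23.3%, 46.2% and 43.8% of *Mrgpra3*- neurons, so that it was about as frequent with *Mrgpra3* as without. *Mrgprd* was in 34.3%, 24.0%, 27.8% and 7.69% of *Mrgpra3*+ neurons. All 30 *Mrgprb5*+ and all 11 *Mrgprb4*+ NP3-like neurons had *Mrgpra3*, against 84.3% of *Mrgprb5*- and 84.8% of *Mrgprb4*- neurons. Of the 11 *Mrgprb4*+ neurons 4 had *Mrgprx1*, 1 had *Mrgprb5* and 0 had *Mrgprd* (95% CI 0% to 28.5%). Of *Mrgpra3*, *Mrgprb4*, *Mrgprb5* and *Mrgprx1*, at least 2 were found in 74, 75, 24 and 21 NP3-like neurons and all 4 in none. A missing UMI does not show that a neuron lacks the transcript, which bears most on *Mrgprb4*, *Mrgprb5* and *Mrgprx1*.

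**Figure D2:**
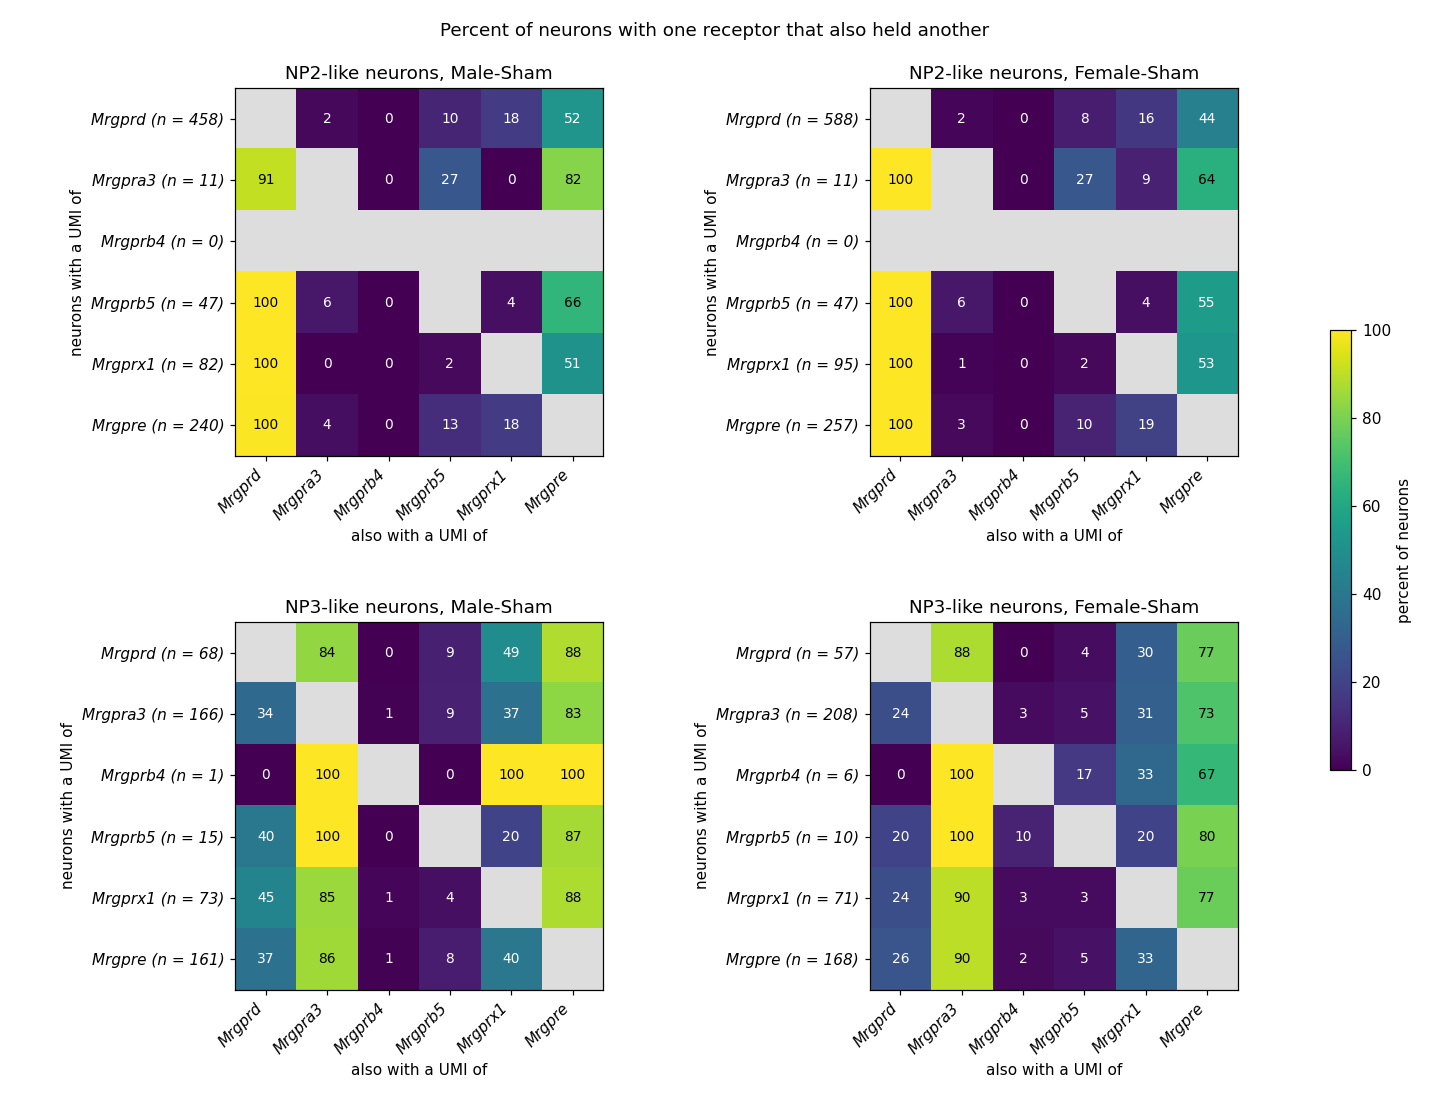
Percent of sham neurons with a UMI of the row receptor that also held the column receptor, in NP2-like and NP3-like neurons of Male-Sham and Female-Sham. In NP2-like neurons 4.26% of *Mrgprb5*+ neurons held *Mrgprx1* in each library, and in NP3-like neurons 30.8% to 37.3% of *Mrgpra3*+ neurons did.

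The genes whose level over 10 classes in each sham library (20 profiles) was most like that of a receptor are given by Pearson's r, without a test, since the profiles share libraries. For *Mrgprd* they were *Mospd2* (0.92), *Trpc6* (0.92) and *Otoa* (0.91), for *Mrgpra3* *Cops4* (0.92), *Stac3* (0.91) and *Tmprss11c* (0.90), and for *Mrgpre* *D430019H16Rik* (0.89), *Klhdc8a* (0.86) and *5330434G04Rik* (0.83). The other 3 receptors did not reach 20 CPM in any class. *Mrgprd* (0.95) was among the 3 most like *Mrgprb5* and *Mrgpra3* (0.91) was the most like *Mrgprb4*. These profiles are the class levels given above, so the correlations restate them and add no support. That of *Mrgprb4* rests on 11 sham UMIs.

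Whether CCI changed the receptors was first asked over all neurons, with UMIs summed in each library and the surgeries compared, 2 libraries each, by the quasi-likelihood test of edgeR, adjusted by the Benjamini-Hochberg method over all genes. A gene was called at an adjusted p below 0.05 and an absolute log2 fold change above 0.5. Mice are pooled within libraries, so p-values measure the spread between 2 libraries of opposite sex. Of 5 receptors tested 3 were called lower and 0 higher, where 12.7% of 17233 genes were called lower.

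*Mrgpra3* lay at 16.8, 15.5, 5.91 and 4.12 CPM, a mean of 16.1 ± 0.914 (SD, n = 2) in sham and 5.01 ± 1.27 in CCI. Both CCI libraries were below both sham libraries, and the log2 fold change was -1.63 (SE 0.18, edgeR adjusted p = 0.0013). *Mrgprb5* lay at 0.438, 0.348, 0.0676 and 0.0876 CPM (71, 66, 11 and 14 UMIs), also without overlap, with a change of -2.27 (SE 0.28, edgeR adjusted p = 0.00070). *Mrgprx1* fell from 1.56 and 1.48 to 0.756 and 0.807 CPM, a change of -0.90 (SE 0.14, edgeR adjusted p = 0.0016).

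*Mrgprd* lay at 73.3, 46.1, 27.0 and 18.8 CPM, with both CCI below both sham libraries. Its change of -1.33 (SE 0.37) missed the threshold in edgeR (adjusted p = 0.074), and passed it in DESeq2 (adjusted p = 0.0039) and with sex as a block (-1.32, edgeR adjusted p = 4.2e-06). *Mrgpre* lay at 23.1, 23.6, 19.7 and 20.4 CPM, a small difference without overlap of -0.16 (SE 0.05, edgeR adjusted p = 0.035) that did not reach the limit on size. CCI neurons thus kept 31.1% of the sham level of *Mrgpra3*, 19.7% of *Mrgprb5*, 51.5% of *Mrgprx1*, 38.3% of *Mrgprd* and 85.8% of *Mrgpre*. In such sums fewer neurons of a type and less RNA per neuron cannot be told apart.

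The share of neurons moved with these levels. NP2-like neurons made up 14.0%, 10.9%, 5.22% and 4.65% of neurons and NP3-like neurons 5.82%, 4.41%, 2.38% and 1.87%, while CCI-ind-like neurons made up 1.37%, 2.59%, 44.98% and 43.9%. Neurons with *Mrgprd* made up 19.1%, 13.6%, 7.31% and 5.80% of neurons and those with *Mrgpra3* 6.58%, 4.85%, 2.70% and 1.98%. Thinning each neuron to 10000 UMIs left *Mrgprd* in 15.3%, 11.4%, 5.82% and 4.40%, with both CCI libraries still the lowest.

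*Sprr1a*, which encodes a small proline-rich protein induced in DRG neurons by axon injury, was then used to split the neurons. *Sprr1a*+ neurons, with a normalized value (natural logarithm of 1 plus UMIs per 10000) above 1, were 1.28%, 2.67%, 52.1% and 49.2% of neurons. Among *Sprr1a*- neurons 1 of 5 receptors tested, *Mrgprb5*, was called lower, where 1.24% of 16406 genes were. *Mrgprd* lay at 74.4, 47.6, 58.4 and 37.4 CPM, with overlapping groups and a change of -0.37 (SE 0.38, edgeR adjusted p = 0.58). *Mrgprx1* lay at 1.58, 1.53, 1.63 and 1.59 CPM (0.03, SE 0.13, edgeR adjusted p = 0.90). The change of *Mrgprx1* in *Sprr1a*- neurons was smaller than its error, whereas *Mrgprd* was lower in each CCI library than in the sham library of its sex, with 78.4% left. With sex as a block the adjusted p of *Mrgprd* was 6.4e-05 at a change of -0.37, which did not reach the limit on size. *Mrgpra3* lay at 17.03, 16.0, 12.8 and 8.15 CPM, without overlap but short of the threshold (-0.68, SE 0.22, edgeR adjusted p = 0.11). *Mrgprb5* lay at 0.444, 0.360, 0.121 and 0.177 CPM (-1.44, SE 0.31, edgeR adjusted p = 0.024), a call that was lost with DESeq2 (adjusted p = 0.069) and without any 1 of the 4 libraries (edgeR adjusted p = 0.062 to 0.10). *Mrgpre* lay at 23.3, 23.9, 24.99 and 25.8 CPM (0.08, SE 0.05, edgeR adjusted p = 0.33).

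Within the CCI libraries, *Sprr1a*+ neurons were set against *Sprr1a*- neurons from the same library. All 4 receptors tested were called lower, where 24.7% of 16240 genes were. *Mrgprd* lay at 0.318 CPM in *Sprr1a*+ against 58.4 CPM in *Sprr1a*- neurons of Male-CCI, and at 0.459 against 37.4 CPM in Female-CCI, a log2 change of -6.78 (SE 0.18, edgeR adjusted p = 1.2e-05). *Mrgpra3* lay at 0.102 and 0.149 against 12.8 and 8.15 CPM (-6.21, SE 0.19, edgeR adjusted p = 1.7e-09). *Mrgprx1* lay at 0.0114 and 0.0372 against 1.63 and 1.59 CPM (-5.83, SE 0.39, edgeR adjusted p = 2.1e-07). By the group means these levels were 123-fold, 83.3-fold and 66.4-fold lower. The sides also differed in their mix of classes, as 309 of 316 NP2-like and 132 of 135 NP3-like CCI neurons were *Sprr1a*-. Mix of classes and loss per neuron cannot be told apart in this comparison.

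*Mrgpre* differed in scale. It lay at 15.1 and 15.2 CPM in *Sprr1a*+ against 24.99 and 25.8 CPM in *Sprr1a*- neurons (-0.57, SE 0.05, edgeR adjusted p = 1.7e-06), so that 59.8% of the level was left. It fell below the limit on size with doublets kept (-0.48). *Mrgpre* was found in 1601 of 3256 *Sprr1a*+ neurons (49.2%) and 1994 of 3198 *Sprr1a*- neurons.

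The UMIs that were left in *Sprr1a*+ neurons were few. *Mrgprd* had 65 UMIs in 57 of 3256 neurons, 1.75% (95% CI 1.33 to 2.26), and *Mrgpra3* 21 UMIs in 19 neurons (0.584%). *Mrgprx1* had 4 UMIs, against 248 in *Sprr1a*- neurons. Classes that should lack these receptors held 0 to 0.878 CPM of *Mrgprd* in CCI libraries, in 0% to 3.53% of neurons, and 0 to 0.215 CPM of *Mrgpra3*. The levels in *Sprr1a*+ neurons lay inside these ranges, which rest on few UMIs, 0 to 4 per class and library for *Mrgprd*. The values therefore show no expression above background and cannot exclude it. At least 3 UMIs of *Mrgprd* were in 2 CCI-ind-like neurons of Male-CCI and 0 of Female-CCI. *Mrgprb5*, which was not tested, had 2 UMIs in 1 *Sprr1a*+ neuron against 23 UMIs. *Mrgprb4* had 0 UMIs in 3256 neurons, which allows a share of neurons with a UMI of up to 0.0921% and does not limit how many express it. Against 16 UMIs in *Sprr1a*- neurons it was at least 5.84-fold lower taken against 3 UMIs over the group, but 15 of the 16 were in 3 neurons of Male-CCI, and the 1 UMI of Female-CCI is below that floor and gives no bound.

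**Figure D3:**
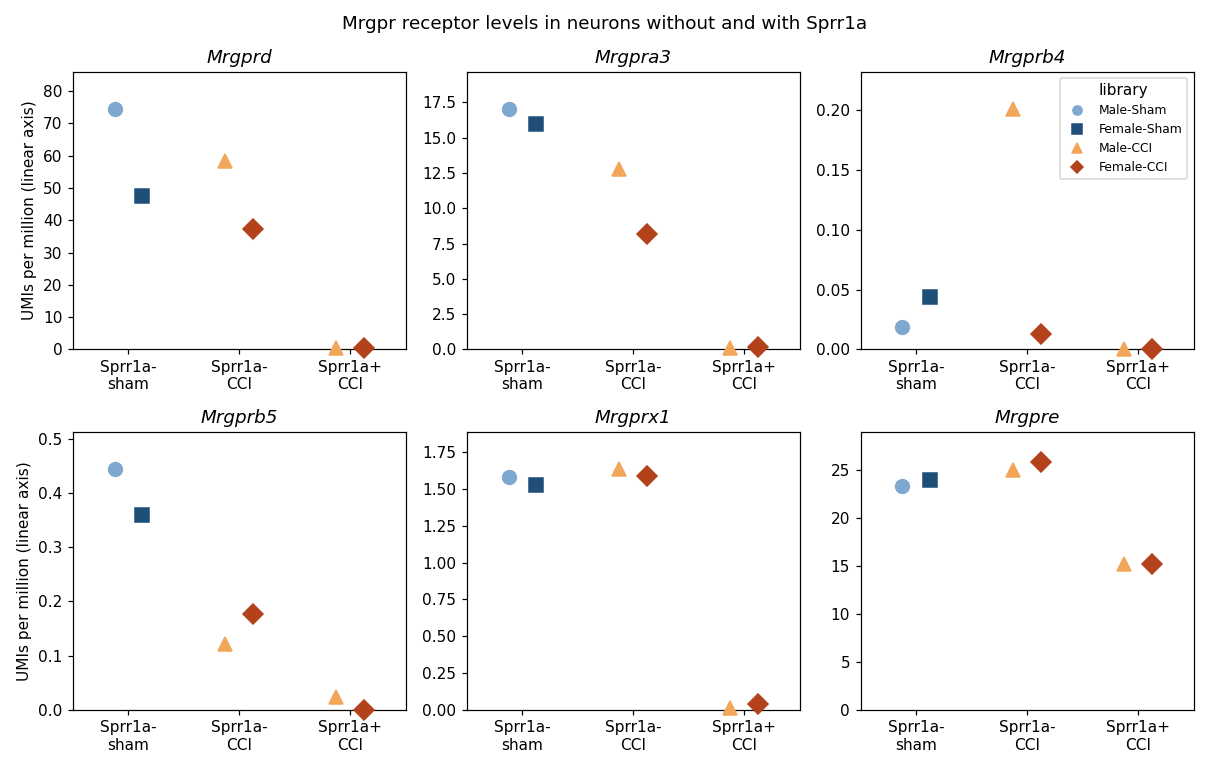
Level of each receptor (CPM, linear axes that differ between panels) in *Sprr1a*- neurons of sham and CCI libraries and *Sprr1a*+ neurons of CCI libraries, with a point per library. In CCI libraries *Mrgprd* lay at 37.4 to 58.4 CPM in *Sprr1a*- and 0.318 to 0.459 CPM in *Sprr1a*+ neurons, whereas *Mrgpre* lay at 24.99 to 25.8 and 15.1 to 15.2 CPM.

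The choice of limit mattered, since 83.4% and 80.1% of CCI neurons held at least 1 UMI of *Sprr1a*. When any UMI made a neuron positive, the change of *Mrgprd* shrank to -0.80 and that of *Mrgpre* to -0.27, while *Mrgpra3* turned to 0.38. The 5 ranges of *Sprr1a* show where the levels changed. *Mrgprd* lay at 45.8 CPM in Male-CCI and 33.2 CPM in Female-CCI in neurons without *Sprr1a*, at 62.7 and 39.1 CPM with a value up to 1, and at 0.77 and 1.99, 0.36 and 0.46, and 0.28 and 0.28 CPM at values of 1 to 2, 2 to 3 and above 3. The drop therefore lay between the second and the third range and not along the whole scale. *Mrgpra3* followed it, at 5.38 and 3.44, 15.3 and 10.1, 0 and 0.17, 0.18 and 0.19, and 0.09 and 0.13 CPM. *Mrgpre* took a single small step at the same place, from 24.8 and 25.7 to 15.1 and 16.95 CPM.

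**Figure D4:**
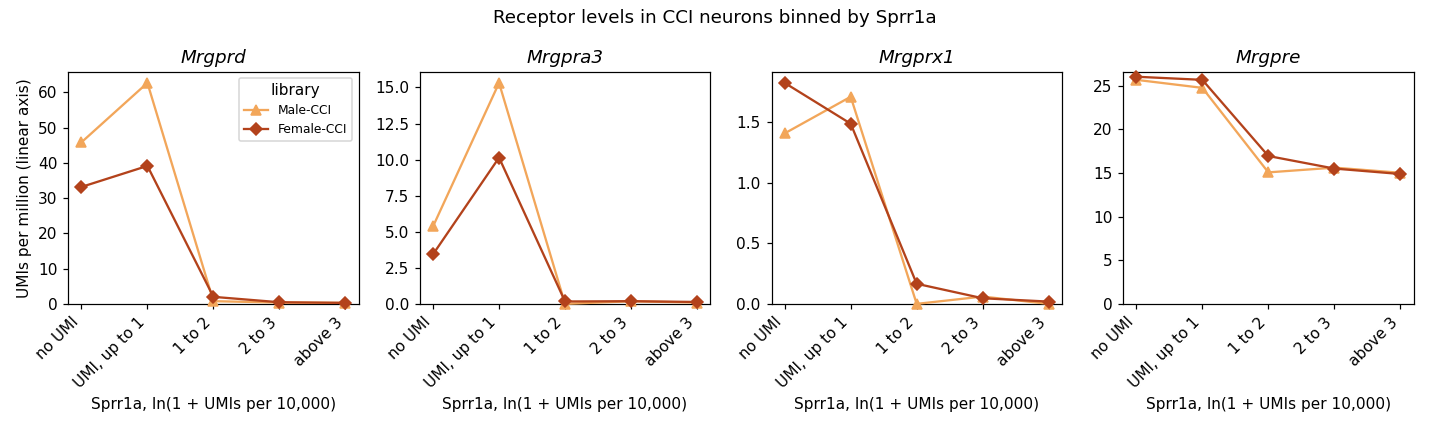
Level of 4 receptors (CPM, linear axes) by range of the normalized *Sprr1a* value in Male-CCI and Female-CCI. *Mrgprd* falls from 39.1 to 62.7 CPM in neurons with a value up to 1 to 0.77 to 1.99 CPM at a value of 1 to 2.

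The classes that carry the receptors were next compared between surgeries in *Sprr1a*- neurons alone. In NP2-like neurons 1 of 5 receptors, *Mrgprb5*, was called lower, where 1.87% of 12506 genes were. *Mrgprd* lay at 359 and 284 CPM in sham and 353 and 272 CPM in CCI, with overlapping groups and a change of -0.06 (SE 0.19, edgeR adjusted p = 0.88). The *Sprr1a*- NP2-like neurons of CCI libraries thus held *Mrgprd* at a level that was not distinguishable from sham. *Mrgprb5* lay at 1.73 and 1.84 against 0.507 and 0.936 CPM (-1.34, SE 0.36, edgeR adjusted p = 0.018), on 54, 54, 6 and 10 UMIs. This call was lost with DESeq2 (adjusted p = 0.20), without Female-Sham (edgeR adjusted p = 0.074) and without Male-CCI (edgeR adjusted p = 0.20). *Mrgprx1* lay at 3.65 and 4.05 against 4.90 and 5.52 CPM (0.41, SE 0.18, edgeR adjusted p = 0.13), higher in both CCI libraries but short of the threshold. *Mrgpre* (0.23, SE 0.11, edgeR adjusted p = 0.18) and *Mrgpra3* (-1.41, SE 0.60, edgeR adjusted p = 0.12) did not pass it either.

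In NP3-like *Sprr1a*- neurons 0 of 4 receptors tested were called, where 1.11% of 11687 genes were called lower. *Mrgpra3* lay at 212 and 239 against 177 and 159 CPM, both CCI below both sham libraries. Its change of -0.47 (SE 0.09, edgeR adjusted p = 0.0028) fell just short of the limit on size, and passed it without Male-Sham (-0.56) or without Male-CCI (-0.54). *Mrgprd* lay at 46.3 and 19.7 against 26.9 and 8.63 CPM (-0.87, SE 0.92, edgeR adjusted p = 0.72), with overlapping groups, and was called with sex as a block (-0.95, edgeR adjusted p = 0.00015). *Mrgprx1* (-0.15, SE 0.21) and *Mrgpre* (-0.01, SE 0.12) showed no difference beyond their spread (edgeR adjusted p = 0.75 and 0.98). In the 8 other classes 0 of 13 tests of a receptor were called by edgeR, 2 of them at an unadjusted p below 0.05, where 2.85% of gene tests were called.

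**Figure D5:**
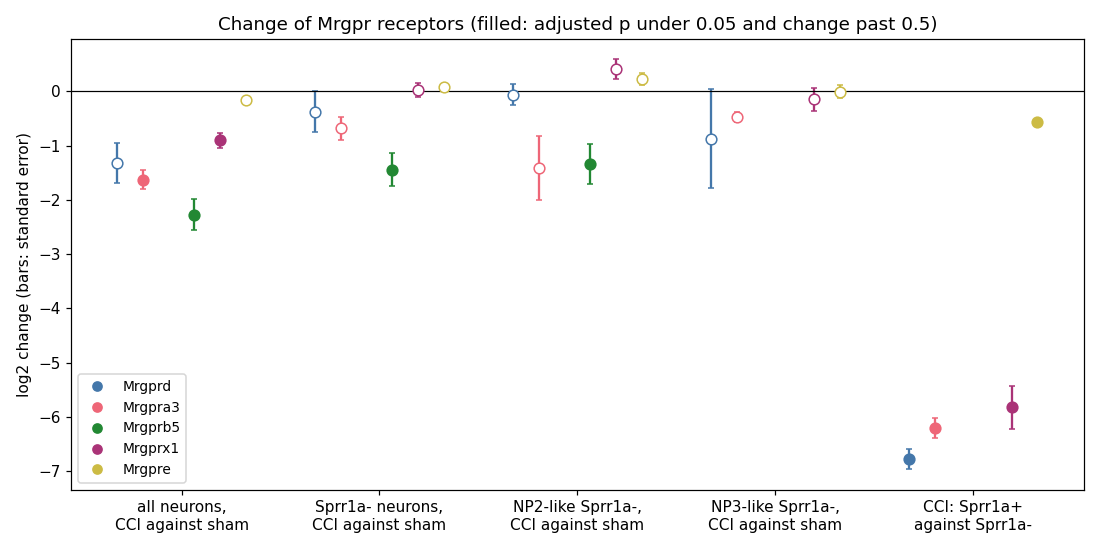
Log2 fold changes (points, bars show SE) of the receptors in 5 comparisons tested by edgeR, with filled points for those called. *Mrgprd* was -0.06 in NP2-like *Sprr1a*- neurons and -6.78 in *Sprr1a*+ against *Sprr1a*- neurons of CCI, where *Mrgpre* was -0.57.

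Nearly all *Sprr1a*+ neurons that resembled NP2 or NP3 neurons lay in the CCI-ind-like clusters, so each CCI neuron was assigned the class of sham neurons it was most like, from 2095 variable genes without any Mrgpr gene and without 1927 genes that differed between surgeries. Between the sham libraries this gave the right class for 7943 of 7963 neurons, among them 1051 of 1051 NP2-like and 426 of 429 NP3-like neurons. It cannot be checked in the same way for injured neurons. An NP2 origin was given to 26.1% and 19.3% of CCI neurons, more than the 14.0% and 10.9% that were NP2-like in sham. The median assignment scores of these neurons were 0.852 in Male-CCI and only 0.565 in Female-CCI. How many of the 579 *Sprr1a*+ neurons of NP2 origin in Male-CCI and 531 in Female-CCI came from other classes was not tested. These were compared with the *Sprr1a*- NP2-like neurons of sham, which also serve as controls above.

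*Sprr1a*+ neurons of NP2 origin had 4 of 5 receptors called lower, where 24.9% of 14002 genes were. *Mrgprd* lay at 359 and 284 CPM in sham and at 0.380 and 0.884 CPM in the neurons of NP2 origin, a change of -9.14 (SE 0.30, edgeR adjusted p = 1.3e-05). It was detected in 1046 of 1051 sham neurons and in 28 of 1110 neurons of NP2 origin (2.52%, 95% CI 1.68 to 3.63), a share inside the background range. With assignments scored at least 0.8, which left 304 and 10 neurons, the change was -8.35 (edgeR adjusted p = 0.093). With the injury genes kept among the features only 0 and 8 *Sprr1a*+ neurons were given an NP2 origin, so the comparison rests on leaving those genes out. *Mrgprx1* had 233 UMIs in sham and 0 in 1110 neurons of NP2 origin, which allows a share of neurons with a UMI of up to 0.270%, and was at least 77.2-fold lower, taken against 3 UMIs over the group. *Mrgprb5* had 108 UMIs in sham and 2 UMIs in 1 neuron of NP2 origin, 0.0332 CPM with an exact Poisson 95% interval of 0.00402 to 0.120 CPM, a ratio of 53.6 (log2 change -5.66, SE 0.55, edgeR adjusted p = 1.9e-08). *Mrgpra3*, the fourth call, went from 0.8001 and 0.613 to 0.117 and 0.115 CPM (-2.65, SE 0.49, edgeR adjusted p = 8.9e-05), on 43 and 7 UMIs. Classes that should lack *Mrgpra3* held 0 to 0.485 CPM in sham, in 0% to 3.03% of neurons, against 2.09% of NP2-like sham neurons, so this call rests on levels near background. *Mrgpre* lay at 12.4 and 12.4 against 12.5 and 11.3 CPM, with overlapping groups (-0.14, SE 0.10, edgeR adjusted p = 0.22).

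*Sprr1a*+ neurons of NP3 origin, 59 in Male-CCI and 165 in Female-CCI, had 3 of 4 receptors called lower, where 24.3% of 12235 genes were. This set also depended on the processing. An NP3 origin was given to 4.79% and 6.93% of CCI neurons against 5.82% and 4.41% that were NP3-like in sham, with median scores of 0.689 and 0.664, and the *Sprr1a*+ neurons among them were 7 and 32 with doublets kept, 0 and 8 at a score of at least 0.8, and 0 and 3 with the injury genes kept. *Mrgpra3* lay at 212 and 239 CPM in NP3-like *Sprr1a*- neurons of sham and at 0 and 0.867 CPM in neurons of NP3 origin, a change of -8.60 (SE 0.28, edgeR adjusted p = 2.1e-12). It was found in 374 of 429 sham neurons and in 4 of 224 of NP3 origin (1.79%, 95% CI 0.489 to 4.51). *Mrgprx1* had 187 UMIs in sham and 0 in 224 neurons, which allows a share of neurons with a UMI of up to 1.34%, and was at least 25.3-fold lower. *Mrgprb5* and *Mrgprb4*, not tested, had 0 UMIs and were at least 3.78-fold and 1.49-fold lower on the same floor. *Mrgprd* lay at 46.3 and 19.7 against 0.332 and 0.145 CPM, without overlap. Its change of -7.33 (SE 1.62) missed the threshold in edgeR (adjusted p = 0.056). It passed with DESeq2 (adjusted p = 5.2e-11) and with sex as a block (-7.10, edgeR adjusted p = 4.7e-78). The blocked fit rests on 2 pairs and the 224 neurons held 2 UMIs of *Mrgprd*, so little weight can be put on that p-value. Leaving out 1 library the change was -7.82 to -6.59. *Mrgpre*, which was not called in neurons of NP2 origin, lay at 30.5 and 27.0 against 17.6 and 11.998 CPM here (-1.13, SE 0.16, edgeR adjusted p = 1.9e-05).

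With any UMI of *Sprr1a* as the limit the changes shrank to -2.28 for *Mrgprd* in neurons of NP2 origin and -1.62 for *Mrgpra3* in neurons of NP3 origin. Summed markers of satellite glia, the cells that wrap DRG neurons, lay at 403 to 525 CPM in the NP2-like sham neurons against 572 to 747 CPM in neurons of NP2 origin, and at 336 to 662 against 26.5 to 257 CPM for NP3. None of the 6 glial markers was at 0, and their part in the results was not tested.

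The genes through which Mrgprs act were followed as a list of 20 G-protein subunits, effectors and channels. Over all neurons 2 were called higher and 4 lower, where 2614 of 17233 genes were higher and 2183 lower, with a median change of -0.11 against -0.01 for all genes. Within CCI 4 were higher and 11 lower in *Sprr1a*+ neurons, where 3393 of 16240 genes were higher and 4007 lower. Of 18 genes tested in *Sprr1a*- neurons of each class, *Gnai1*, an inhibitory G-protein subunit, rose in NP2-like neurons (0.81), and *Kcnq3*, a potassium channel, and *Trpa1*, an irritant channel, rose in NP3-like neurons (1.66 and 1.15), where 324 of 12506 genes (NP2-like) and 183 of 11687 genes (NP3-like) were called higher. *Trpa1* lay at 10.1 and 11.2 CPM in sham and 22.9 and 26.4 CPM in CCI there. In *Sprr1a*+ neurons of NP2 origin 5 of 20 were higher and 10 lower, where 3877 of 14002 genes were higher and 3487 lower. *Plcb3*, the phospholipase C beta of these neurons, fell from 151 and 125 to 9.94 and 9.92 CPM (-3.88), and *Trpa1* from 66.3 and 73.6 to 0.789 and 1.54 CPM (-6.05). *Kcnq3* (6.48), *Ano1* (6.02), a calcium-gated chloride channel, and the IP3 receptor genes *Itpr3* (2.56) and *Itpr1* (2.47) rose. *Ano1* started at only 0.0320 and 0.0341 CPM in sham and reached 2.57 and 2.499 CPM, so the size of its change rests on a level near 0. *Ano1* was also among the leading genes of a CCI-ind-like cluster, and *Kcnq3* of an NF1-like cluster. The part of wrongly assigned neurons in the rises of *Ano1* and *Kcnq3* was not tested. In neurons of NP3 origin 2 of 18 were higher and 12 lower, where 2958 of 12235 genes were higher and 2969 lower, among the latter *Plcb3* (-3.61) and *Trpa1* (-3.09). *Trpa1* was thus higher in NP3-like *Sprr1a*- neurons of CCI and lower in *Sprr1a*+ neurons of NP3 origin, comparisons that share their sham neurons.

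Of 20 other genes of nonpeptidergic and itch neurons, 3 were called higher and 9 lower over all neurons, and 15 to 17 could be tested by class, against the same counts over all genes as above. In NP2-like *Sprr1a*- neurons *Osmr*, the oncostatin M receptor, rose (0.78) and *Lpar3* fell (-0.76). In NP3-like *Sprr1a*- neurons 1 fell, the GDNF-family receptor *Gfra2* (-1.44). In *Sprr1a*+ neurons of NP2 origin 3 were higher and 12 lower, with a median of -1.83. *Gfra2* (-6.09), *Kcnk18* (-5.96), a potassium channel, *Scn11a* (-5.84), the sodium channel Nav1.9, and *Lpar3* (-5.42) fell with *Mrgprd*. *Gfra2* and *Lpar3* also served as markers to name NP2-like clusters. The sham side was thus chosen in part for high levels of them, and their falls are no independent support. *P2rx3* (1.33), the ATP-gated channel of these neurons, rose, as did the histamine receptor *Hrh1* (2.95) and the neuropeptide Y receptor *Npy2r* (3.70). *Hrh1* started at only 0.192 and 0.102 CPM and reached 1.23 and 1.27 CPM. *Npy2r* went from 0.064 and 0.238 to 2.72 and 1.38 CPM. *Npy2r* was also a marker used to name NP1-like clusters, and *Hrh1* was among the leading genes of the NP3-like cluster. The part of wrongly assigned neurons in these rises was not tested. In neurons of NP3 origin 1 was higher, *P2rx3* (1.99), and 10 were lower.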

How the data were processed

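Cells sorted from L4-5 DRGs were profiled with 10x Genomics v3 chemistry in 4 libraries, grouped by surgery from their labels. The authors aligned reads to mm10 with Cell Ranger and deposited raw UMI counts of each gene in each called cell, without normalization or filters. The submitters' processing notes name Cell Ranger 2.1.1, the headers of the matrices 3.0.2.

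Cells were kept with at least 1500 genes and at most 10% of UMIs mitochondrial. Scrublet (scanpy 1.11.5, expected rate 0.1) marked only 2, 121, 0 and 0 doublets, so the highest-scoring 837, 1381, 601 and 912 cells, the numbers that the study removed, were taken out. Seurat 5.3.0 integrated the libraries on 3000 variable genes, without the 5 Mrgpr genes among them, and clusters were made at resolution 0.8 from 20 principal components. Names were given where at least 3 markers of a class were in 10% of a cluster's cells at 2 times the level of other cells. Origins of CCI neurons came from Seurat label transfer against sham neurons.

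Neuron counts were summed per library and tested with edgeR 4.0.16 (robust quasi-likelihood, filterByExpr, TMM, Benjamini-Hochberg adjustment over all genes), where every library gave at least 10 cells. The comparison within CCI has library as a block. SE is the absolute log2 fold change over the square root of F. Counts of called genes leave out *Sprr1a* where it defines the neurons. Intervals are 95% Clopper-Pearson or exact Poisson, floors 3 UMIs, and both cover counting error only. As alternatives, DESeq2 1.42.0, total-count scaling, no filter on low counts, a block for sex, doublets kept, other limits on *Sprr1a*, genes and UMIs, other resolutions, Mrgpr genes kept in the clustering, other assignments and leaving out each library were tried. Thinning to 10000 UMIs, leaving CCI-ind-like neurons out of origins and the test between origins were chosen after seeing the data. On simulated data edgeR called 173 of 200 changed genes (86.5%) and 2 false ones for all neurons (17029 genes), and 155 (77.5%) and 5 for NP3 origin (11823 genes).

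The receptors and gene lists were chosen with earlier results of these data known. From a list, the text names by rule members with the largest called changes in each direction (1 such gene is not reported here), and for each receptor the 3 genes of most like profile. Male deviations from the group means correlated between sham and CCI with r = 0.414 over 17233 genes. The shared number is sex, not an animal, and gives 2 pairs, on which all p-values with sex as a block rest. Python 3.11.15 (anndata 0.12.19, biopython 1.88, matplotlib 3.10.9, numpy 2.4.6, pandas 2.3.3, scipy 1.17.1), R 4.3.3, limma 3.58.1 and SeuratObject 5.2.0 were used.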

Additional observations from a re-analysis of the deposited data

Results flagged for a closer look

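The changes of 2 receptors differed between *Sprr1a*+ neurons of NP3 origin and those of NP2 origin, tested as an interaction over the 8 library sums of both comparisons (edgeR quasi-likelihood, Benjamini-Hochberg over 13946 genes, of which 3046 passed). The log2 fold change of *Mrgpra3* was -8.60 in neurons of NP3 origin and -2.65 in those of NP2 origin, a difference of -6.26 (SE 1.03, adjusted p = 0.00058). In sham it lay at 212 and 239 CPM in NP3-like and at 0.8001 and 0.613 CPM in NP2-like *Sprr1a*- neurons, against 0 to 0.485 CPM in classes that should lack it. The level in NP2-like neurons was near that background, so the changes start from unlike levels. Why they differed was not tested. The change of *Mrgpre* was -1.13 and -0.14, a difference of -1.02 (SE 0.17, adjusted p = 0.00071). In sham *Mrgpre* lay at 30.5 and 27.0 CPM in NP3-like and at 12.4 and 12.4 CPM in NP2-like *Sprr1a*- neurons. In *Sprr1a*+ neurons it lay at 17.6 and 11.998 CPM (NP3 origin) and 12.5 and 11.3 CPM (NP2 origin). The classes thus differed more in sham than the origins did in *Sprr1a*+ neurons. The neurons of NP3 origin numbered 59 and 165 in the CCI libraries. For *Sprr1a*- NP3-like against NP2-like neurons, with 12509 genes and 60 past the thresholds, no receptor passed by edgeR; *Mrgprx1* was nearest with a difference of -0.56 (unadjusted p = 0.050, adjusted p = 0.51).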

How the results depend on the processing

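Results were recomputed 482 times under other settings: 412 kept their direction and side of the threshold or moved little, 12 lost and 16 gained a call, 8 changed direction and 34 counts moved. Direction changed for *Mrgprx1* in *Sprr1a*- neurons (-0.10 with doublets kept, -0.048 with *Sprr1a* above 2), for *Mrgpra3* within CCI (0.38 with any UMI of *Sprr1a*), for *Mrgprd* in NP2-like *Sprr1a*- neurons (-0.25 to 0.11 leaving out 1 library) and for *Mrgpre* in NP3-like *Sprr1a*- neurons (-0.088 to 0.077 leaving out 1 library, 0.071 with any UMI). None of these was called as reported except *Mrgpra3* within CCI. Called genes in *Sprr1a*- neurons, 734, were 325 to 704 leaving out 1 library, and 1 receptor lower became 0 with DESeq2, 2 with doublets kept, 2 with any UMI and 0 to 1 leaving out 1 library. Within CCI any UMI gave 4760 genes in place of 7400 and 2 receptors in place of 4. In NP2-like *Sprr1a*- neurons 558 genes became 287 with DESeq2 and 319 with any UMI, and 1 receptor became 0 with either, 2 with doublets kept and 0 to 1 leaving out 1 library. In NP3-like *Sprr1a*- neurons 313 genes became 98 with DESeq2, 125 with any UMI and 200 to 468 leaving out 1 library, and 0 receptors became 1 with any UMI and 0 to 1 leaving out 1 library. For NP3 origin any UMI gave 3546 genes in place of 5927, and leaving out 1 library gave 4 to 5 receptors in place of 3. In the other classes 0 receptors became 2 without the filter on low counts, 4 with doublets kept and 0 to 1 leaving out 1 library. The number of receptors with lower shares in both CCI libraries, 4, became 2 with a limit of 3 UMIs. Apart from fewer samples or genes by construction, the causes were not tested.

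With sex as a replicate block, 4939 genes were called in all neurons, 1076 in *Sprr1a*- neurons, 662 in NP2-like and 369 in NP3-like *Sprr1a*- neurons, 7398 for NP2 origin and 6017 for NP3 origin, with 4, 1, 1, 1, 4 and 4 receptors lower. The receptor gained in all neurons, in NP3-like *Sprr1a*- neurons and for NP3 origin was *Mrgprd*, and the other classes had 1 receptor in place of 0. Without the block 7305 genes and 4 receptors were called within CCI, and the block changed no other call of a receptor. Leaving out a library within CCI leaves no residual degrees of freedom. For lack of 10 neurons per library, NP3 origin with doublets kept or scores of at least 0.8, and both origins with injury genes kept, with classes from clusters or without CCI-ind-like neurons, could not be tested.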

Other observations

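Other members of the family were found in these libraries, and whether they shared single neurons with the receptors above was not scored. *Mrgpra2b* gave 3314 UMIs in 1696 neurons and *Mrgpra2a* 1098 UMIs in 799 neurons, more than *Mrgprx1*, while *Mrgpra1* gave 103 UMIs and *Mrgprb3* and *Mrgprx2* gave 0 in 15133 neurons. Of 4 such genes tested over all neurons 2 were called lower by edgeR, *Mrgpra2b* (-1.30) and *Mrgpra2a* (-1.09). In NP2-like *Sprr1a*- sham neurons *Mrgpra2b* lay at 9.09 and 11.2 CPM, against 0 and 0.115 CPM in *Sprr1a*+ neurons of NP2 origin, and *Mrgpra2a* in NP3-like sham neurons at 7.77 and 8.40 CPM against 0 and 0 CPM in those of NP3 origin. *Mrgpra2a* and *Mrgpra2b* are near-identical copies, so reads could be split or dropped between them. No other Mrgpr gene was called in *Sprr1a*- neurons of either class by edgeR.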
